A study of Homo sapiens with 12 samples.

Results

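Cancer-testis antigens are proteins made in male germ cells and, when their silenced genes are switched on, in tumors. Most of their genes lie on the X chromosome in families of near-identical copies, and DNA methylation of their promoters is a known means of their silencing in somatic cells. Their appearance in tumor cells makes them targets for vaccines and engineered T cells. The genes described here are those whose array name belongs to the MAGEA, MAGEB, MAGEC, GAGE, PAGE, XAGE, SPANX, SSX or CTAG families.

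The names found 82 probes, of which 48 were well above local background, by the flag of the scanner software, on at least 3 of the 12 arrays. Near-identical copies were treated as 1 signal, which left 36 of 56 signals, among 24854 genes tested. The families were chosen with earlier results of these data known. Their members were found by name and selected on this detection flag, a rule that uses no comparison of lines or transfections. A signal detected in 1 line alone passes because it is high there, so counts over the kept signals are descriptions. Of the 36, the 7 CTAGE genes and SSX2IP matched by name only and lie outside the X chromosome, whereas all 67 probes of the other families lie on it. SSX2IP encodes a protein that binds SSX2, and the array's CTAGE5 is now named MIA2.

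The arrays measured mRNA of 3 lung adenocarcinoma cell lines. A549 and PC14 are unrelated lines, and PC14CDDP was derived from PC14 and is resistant to cisplatin. Each line was transfected at 25 nM with pre-miR-197 (premiR-197 in the labels), which supplies the miRNA, with its control NC (AllStar-NC in the labels), with LNA-miR-197, a locked nucleic acid that blocks the miRNA, or with the control LNA-NC (LNA-miR-NC in the labels). Each combination had 1 array, so the line is the replicate of a transfection, and the 4 arrays of a line are differently treated cultures of that line. As PC14CDDP derives from PC14, the 3 replicates are not fully independent.

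The A549 arrays shared 1 slide and the PC14 and PC14CDDP arrays another, so that slide and A549 cannot be told apart, and each transfection kept 1 slide column in every line. The flag was set for 55.8% to 63.0% of probes per array, and 0 spots were saturated. Of the lung epithelial and adenocarcinoma markers, 6 of 10 were above background on all arrays (KRT7, KRT8, KRT18, KRT19, NAPSA and SFTPC) and SFTPB on none. Of 12 male germ cell markers, PRM1, PRM2, TNP2 and ACR were above background on all arrays, and DDX4, DAZL, STRA8, ODF1 and PIWIL1 on none. The summed level of that list was 306 to 398 units in A549, 251 to 299.5 in PC14 and 272 to 293 in PC14CDDP, and its part in the results was not tested. Leukocyte markers (3 of 6), fibroblast markers (1 of 6) and endothelial markers (2 of 4) were also above background on all arrays. An array cannot tell fewer cells making an RNA from less RNA per cell.

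Some of the probes behind the results are printed here. The probes for SPANXB2 and SPANXA1 are shown because they carry the change of SPANXA/B/C/D after LNA-miR-197. SPANX proteins are found in the nucleus of sperm cells. The coordinates are those of the arrays, on hg19, and no pair of these 3 probes shares a run longer than 8 bases.
SPANXB2, first probe, chrX:140097676-140097735: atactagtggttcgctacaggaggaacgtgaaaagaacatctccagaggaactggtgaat
SPANXB2, second probe, chrX:140097760-140097819: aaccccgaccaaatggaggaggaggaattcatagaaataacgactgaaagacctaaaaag
SPANXA1, chrX:140678815-140678874: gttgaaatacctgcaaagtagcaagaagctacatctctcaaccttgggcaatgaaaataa
The probes for CTAG1A, whose product is the vaccine antigen NY-ESO-1, and GAGE2B are examples of those with far lower signals in A549.
CTAG1A, chrX:153815008-153815067: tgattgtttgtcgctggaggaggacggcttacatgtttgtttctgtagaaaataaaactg
GAGE2B, chrX:49242935-49242993: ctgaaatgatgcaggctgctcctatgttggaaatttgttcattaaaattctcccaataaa
The copies of a family are alike, and a probe can bind RNA of another member. The MAGEA6 and MAGEA12 probes are an example of such likeness, with a shared run of 16 of 60 bases in capitals. Whether either binds RNA of the other gene was not tested. This MAGEA6 probe is not the one whose values are given for MAGEA3/6.
MAGEA6, chrX:151870169-151870228: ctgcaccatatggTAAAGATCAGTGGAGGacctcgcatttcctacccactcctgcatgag
MAGEA12, chrX:151899912-151899971: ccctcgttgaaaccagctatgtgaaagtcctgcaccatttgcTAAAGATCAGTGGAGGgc
Over the 1128 pairs of kept probes, 2 pairs shared a run of 20 bases or more, CTAGE1 with CTAGE10P (32 bases) and CTAGE4 with CTAGE11P (21 bases).

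Values below are scaled signals in arbitrary units: the processed signal of the array, brought to a common 75th percentile of 673 units. Signals of different probes are not comparable with each other. Values given by array are in the order NC, pre-miR-197, LNA-NC, LNA-miR-197. Differences are on the log2 scale from limma, fitted to all 12 arrays with terms for line and transfection and adjusted over all genes by the Benjamini-Hochberg method, with a threshold of 0.05.

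A549 had far lower signals than PC14 for CTAG1, CTAG2, GAGE and most MAGEA genes, and a higher signal for SPANXA/B/C/D. Of the 36 signals, 18 were lower in A549 and 4 higher, where 32.4% and 35.8% of all genes were called lower and higher. At least 10-fold lower means were seen in 12 of the 36, against 2.52% of all genes. Of the 10 MAGEA signals, all 10 were lower. The median difference of the 36 was -0.85, beside 0.08 over all genes.

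CTAG1 gave 10.0, 15.7, 67.8 and 11.5 units in A549. In PC14 it gave 193311, 191148, 188292 and 172689 units, and in PC14CDDP 222357, 208111, 212723 and 226868. The A549 arrays lay far below all others, and the LNA-NC array was the highest of them. A549 was lower than PC14 by a log2 difference of -13.28 (SE 0.46, limma adjusted p = 9.94e-08), and of -13.91 without its LNA-NC array. CTAG1 was above background on 4 of 4 A549 arrays, but mostly at levels near background, so the size is uncertain.

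CTAG2, a close relative of CTAG1 also known as LAGE-1, gave 66.2, 28.9, 74.2 and 52.5 units in A549. In PC14 its values were 77993, 80845, 78417 and 66212, and in PC14CDDP 101241, 101443, 100005 and 103544. The groups did not overlap, and PC14CDDP lay above PC14 on every array. The log2 difference of A549 to PC14 was -10.50 (SE 0.23, limma adjusted p = 1.07e-08), and that of PC14CDDP to PC14 was 0.42 (SE 0.23, limma adjusted p = 0.172), short of the threshold.

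GAGE, a tandem cluster of near-identical antigens, gave 699, 636, 1312 and 476 units in A549. PC14 gave 389574, 355623, 355712 and 362005 units, and PC14CDDP 305079, 299973, 285054 and 321665. A549 was lower than PC14 by -8.98 (SE 0.24, limma adjusted p = 2.72e-08). Another GAGE probe, named GAGE7, had a difference of -13.08, so the size depended on the probe while the direction did not.

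MAGEA proteins bind RING ubiquitin ligases. MAGEA4 gave 96.3, 100.0, 89.2 and 85.4 units in A549 and 10759, 10179, 10205 and 11984 in PC14. Its PC14CDDP values were 20865, 20618, 22296 and 15975. No line overlapped another for MAGEA4. The log2 difference of A549 to PC14 was -6.86 (SE 0.12, limma adjusted p = 3.46e-09).

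MAGEA1, the first of these antigens to be cloned, gave 88.8, 114.6, 89.9 and 93.2 units in A549. It gave 9995, 10040, 10388 and 10547 in PC14, and 17408, 16688, 17219 and 20165 in PC14CDDP. The lines lay apart in the same order as for MAGEA4, with a log2 difference of A549 to PC14 of -6.74 (SE 0.10, limma adjusted p = 1.89e-09).

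MAGEA3/6, the signal of a pair of close copies used as vaccine targets, was detected in A549 at 6219, 5890, 4766 and 4978 units. In PC14 it gave 45257, 43288, 47422 and 58445 units, and in PC14CDDP 61537, 50142, 54820 and 72605. A549 lay below both other lines on every array, and the other lines overlapped. The log2 difference of A549 to PC14 was -3.15 (SE 0.14, limma adjusted p = 3.61e-07).

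MAGEA10, MAGEA8 and MAGEA11 were not well above background on any A549 array, so only approximate bounds can be given. MAGEA10 gave 6969, 9193, 9631 and 9332 units in PC14, at least 926-fold higher than in A549. MAGEA8 gave 416, 453, 466 and 423 units in PC14, at least 44.6-fold higher. MAGEA11, a coregulator of the androgen receptor, was at least 9.08-fold higher in PC14 and at least 119-fold higher in PC14CDDP. The bounds compare the mean of the bright line with the lowest signal of any probe above background on each dim array, or the measured signal where higher. The limit of a given probe can lie higher: MAGEA8 had 11.5 units, not above background, on the A549 LNA-miR-197 array. All 3 signals were called (limma adjusted p of 8.47e-09, 3.43e-06 and 3.86e-08).

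MAGEA9/9B was above background on 1 of 4 A549 arrays, with 1.9, 1.9, 17.8 and 3.2 units. It gave 4898, 5484, 5450 and 5196 units in PC14 and 12583, 13780, 13077 and 10585 in PC14CDDP. The A549 array that detected it was LNA-NC, as for the highest CTAG1 and GAGE values. A549 was lower than PC14 by -10.42 in the fit (SE 0.53, limma adjusted p = 9.13e-07), a size that rests mostly on A549 signals not above background.

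The A549 LNA-NC array was examined over all probes. Probes at least 4 times the 75th percentile on all 8 arrays of the other lines and not above background on the other A549 arrays numbered 7 outside the antigen families, and 2 of them were above background on that array. For the NC, pre-miR-197 and LNA-miR-197 arrays of A549 the same rule gave 0 of 5, 0 of 5 and 1 of 6. MAGEA4 was at 0.892-fold of the highest other A549 array there, and CTAG1 at 4.33-fold. What set these values was not tested.

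XAGE1, an antigen known from prostate and lung cancer, was detected on every array of all lines. It gave 41644, 52483, 43995 and 49683 units in A549 and 128419, 142639, 125485 and 125104 in PC14. PC14CDDP gave 107946, 129470, 105872 and 114186 units, which overlapped PC14. A549 was lower by -1.48 (SE 0.07, limma adjusted p = 8.00e-07).

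On its kept probe, MAGEC1 had low signals above background on all arrays. It gave 13.7, 16.9, 13.4 and 20.6 units in A549 and 26.8, 27.3, 27.6 and 19.7 in PC14. Its PC14CDDP values were 42.0, 25.4, 36.7 and 34.95. Its A549 and PC14 arrays overlapped, and the log2 difference was -0.66 (SE 0.21, limma adjusted p = 0.0244). With normexp background correction it was -0.03 (adjusted p = 0.720). SSX proteins are transcriptional corepressors. SSX2/2B gave 167.9, 186.8, 131.9 and 148.0 units in A549, above the 118.1, 110.3, 104.6 and 96.9 of PC14 and the 111.8, 115.3, 99.1 and 108.4 of PC14CDDP, a log2 difference to PC14 of 0.55 (SE 0.09, limma adjusted p = 6.46e-04). SSX3 and XAGE3 were also higher in A549, by 0.51 and 0.70. The other probes for MAGEC1, SSX2/2B and SSX3 were not above background on any array, so their differences rest on the kept probes alone. SPANXA/B/C/D went furthest the other way from the MAGEA genes, higher in A549 than in PC14 by 5.19 (SE 0.45, limma adjusted p = 1.70e-05), with no overlap of their arrays. The second SPANXB2 probe and the SPANXA1 probe differed by 6.33 and 3.27, so the size depended on the probe while the direction did not.

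**Figure D1:**
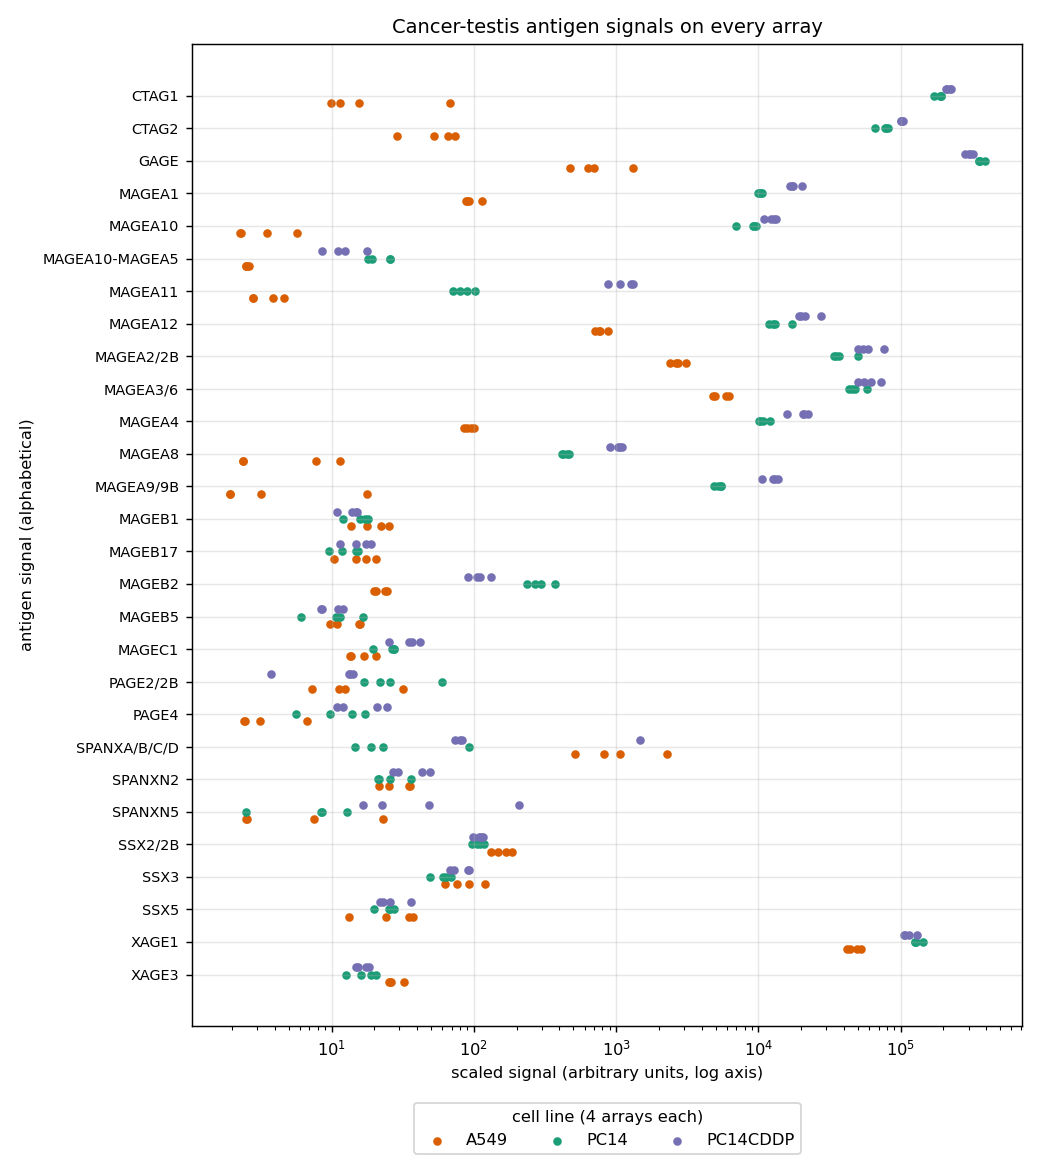
Scaled signal in arbitrary units (log axis) of the 28 kept signals of the X-linked families, with 1 point for each of the 4 arrays of a line. CTAG1, CTAG2, GAGE and most MAGEA signals lie far lower in A549 (orange) than in PC14 (green) and PC14CDDP (purple), whereas SPANXA/B/C/D lies higher in A549 than in PC14. Positions of different signals along the axis are not comparable with each other.

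CTAG1, CTAG2, GAGE and XAGE1 had high signals in both PC14CDDP and PC14, and MAGEA11 and several other MAGEA signals were higher in PC14CDDP. Of the 36 signals, 10 were higher in PC14CDDP and 7 lower, where 25.1% and 23.3% of all genes were called higher and lower. Only MAGEA11 was at least 10-fold higher, as were 0.797% of all genes. The median difference of the 36 was 0.26, beside 0.04 over all genes. The 4 arrays of each line are cultures of 1 line, so the p-values measure the spread between cultures. The fit also holds the A549 arrays, so the spread of A549 enters the SE of PC14CDDP against PC14.

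MAGEA11 gave 80.4, 102.7, 89.9 and 71.7 units in PC14 and 1072, 1281, 1312 and 875 in PC14CDDP. Every PC14CDDP array lay above every PC14 array. The log2 difference was 3.71 (SE 0.13, limma adjusted p = 5.12e-07), which is 13.1-fold.

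MAGEA8 was higher in PC14CDDP by 1.22 (SE 0.43, limma adjusted p = 0.0443), with 1027, 1063, 1096 and 912 units, above all of the PC14 values. Its call was lost when the pre-miR-197, NC or LNA-NC arrays were left out (limma adjusted p of 0.0860, 0.0987 and 0.122). MAGEA4 was higher by 0.88 (SE 0.12, limma adjusted p = 4.88e-04) and MAGEA1 by 0.80 (SE 0.10, limma adjusted p = 3.45e-04). MAGEA12 and MAGEA2/2B were also higher, by 0.68 and 0.62. MAGEA3/6, MAGEA10 and MAGEA9/9B had differences of 0.29, 0.50 and 1.25, which did not pass the threshold (limma adjusted p of 0.112, 0.125 and 0.0893). The other MAGEA3/6 probe differed by 0.65. For MAGEA10 and MAGEA9/9B every PC14CDDP array lay above every PC14 array. The log2 SD of MAGEA9/9B was 1.52 in A549, beside 0.08 in PC14 and 0.16 in PC14CDDP. For MAGEA8 the SDs of these lines were 1.16, 0.08 and 0.12.

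MAGEB2, an X-linked relative of the MAGEA genes, was lower in PC14CDDP. It gave 267.7, 236.3, 375.1 and 294.5 units in PC14 and 109.8, 91.0, 132.1 and 105.4 in PC14CDDP, with no overlap. The log2 difference was -1.41 (SE 0.15, limma adjusted p = 1.17e-04). PAGE2/2B gave 16.8, 60.2, 25.9 and 21.9 units in PC14 and 13.3, 13.5, 14.2 and 3.8 in PC14CDDP, where 1 of 4 arrays was above background. Its difference was -1.48 (SE 0.43, limma adjusted p = 0.0209), but the other PAGE2/2B probes gave -1.27 and 0.37, and without the PC14CDDP LNA-miR-197 array the adjusted p was 0.0704. Without transfection as a block it was 0.0562.

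SPANXA/B/C/D was higher in PC14CDDP than in PC14 by 2.56 (SE 0.45, limma adjusted p = 0.00179), which is 5.91-fold, and SPANXN5 by 2.67 (SE 0.53, limma adjusted p = 0.00357), though SPANXN5 was above background on only 1 of 4 PC14 arrays, so that its size is uncertain. Without the LNA-miR-197 arrays the differences were 2.09 and 2.23 (limma adjusted p of 7.96e-04 and 0.0272). Without transfection as a block the SPANXA/B/C/D call was lost (adjusted p = 0.0517), and with normexp the differences were 1.42 and 0.84. CTAGE5, which despite its name acts in export from the endoplasmic reticulum, gave 236, 273, 290.0 and 304 units in PC14 and 496, 457, 590.2 and 1002 in PC14CDDP. It was higher by 1.14 (SE 0.15, limma adjusted p = 3.87e-04) on 1 probe and lower by -1.15 on another, so its direction depended on the probe. The other signals called lower in PC14CDDP were CTAGE7P, CTAGE1 and CTAGE10P (-0.80, -0.73 and -0.73), MAGEA10-MAGEA5 (-0.87) and SSX2IP (-0.33), and SSX3 was higher by 0.42. CTAG1, GAGE, XAGE1, MAGEC1 and SSX2/2B differed by 0.22, -0.27, -0.19, 0.45 and 0.02, none of which passed the threshold. For CTAG1 every PC14CDDP array lay above every PC14 array, and for GAGE every PC14CDDP array lay below. The arrays of XAGE1, MAGEC1 and SSX2/2B overlapped. The log2 SD of CTAG1 was 1.27 in A549, beside 0.07 in PC14 and 0.06 in PC14CDDP. For GAGE the SDs of these lines were 0.62, 0.06 and 0.07.

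SPANXA/B/C/D had more signal after LNA-miR-197 in each of the 3 lines, and no family other than SPANX had a called signal. Against LNA-NC, limma called 2 of the 36 signals, both higher, SPANXA/B/C/D and SPANXN5, where 7.73% of all genes were called. The count of 2 is no larger a share than that of all genes. At least 2-fold more signal in every line was seen for SPANXA/B/C/D and SPANXN5, and for 0.181% of all genes. For SPANXN5 the LNA-NC signals of A549 and PC14 were not above background. The median change of the 36 was 0.07, beside -0.01 over all genes.

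On the first SPANXB2 probe, which stands for SPANXA/B/C/D, the values were 512, 1064, 825 and 2288 units in A549. They were 14.6, 22.9, 18.8 and 92.9 in PC14 and 79.7, 74.1, 82.0 and 1472 in PC14CDDP. The LNA-miR-197 array was the highest of each line. The ratio to LNA-NC was 2.78-fold in A549, 4.94-fold in PC14 and 18.0-fold in PC14CDDP, and the log2 changes averaged 2.65 ± 1.38 (SD, n = 3), with a limma SE of 0.52 and an adjusted p = 0.0283.

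The SPANXA1 probe had its smallest log2 ratio in A549 (1.77) and its largest in PC14CDDP (4.44), with 2.28 between them in PC14. For the second SPANXB2 probe the ratios were 1.28 in A549 and 3.77 in PC14CDDP, and in PC14 it was above background on 1 of 4 arrays only. With NC as the control, the first probe rose by a mean of 3.01 (limma SE 0.52, adjusted p = 0.0139). Since the A, B, C and D copies are near-identical, it is not known which of them gave the signal.

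SPANXN5 is a separate SPANX gene at another place on the X chromosome. It gave 7.5, 2.5, 2.5 and 22.9 units in A549, 8.5, 8.4, 2.5 and 12.8 in PC14, and 16.7, 48.5, 22.7 and 206.6 in PC14CDDP. Its probe was above background on 3 of 3 LNA-miR-197 arrays, on 1 of 3 LNA-NC arrays and on 0 of 3 NC arrays, so the ratios in A549 and PC14 rest on signals below background. The mean log2 change against LNA-NC was 2.91 ± 0.47 (SD, n = 3), with a limma SE of 0.62 and an adjusted p = 0.0340, and it was 0.67 with normexp background correction (adjusted p = 0.123). SPANXN2 had a log2 difference of 0.14 (limma adjusted p = 0.760).

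These calls needed all 3 lines and the pooled spread of the 12 arrays. With A549, PC14 or PC14CDDP left out, the SPANXA/B/C/D change was 3.24, 2.82 or 1.89 and the adjusted p 0.0880, 0.212 or 0.203. A fit to the LNA-miR-197 and LNA-NC arrays alone gave 0.208. Over all 24854 genes, these fits called 0, 2, 0 and 0, so the loss of a call there was not particular to SPANX. Without the cell line as a block, the adjusted p of both signals was 1.00. Without the PC14CDDP LNA-miR-197 array the SPANXA/B/C/D change was 1.89 (adjusted p = 0.0546), and without the A549 LNA-NC array 2.86 (adjusted p = 0.0588).

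**Figure D2:**
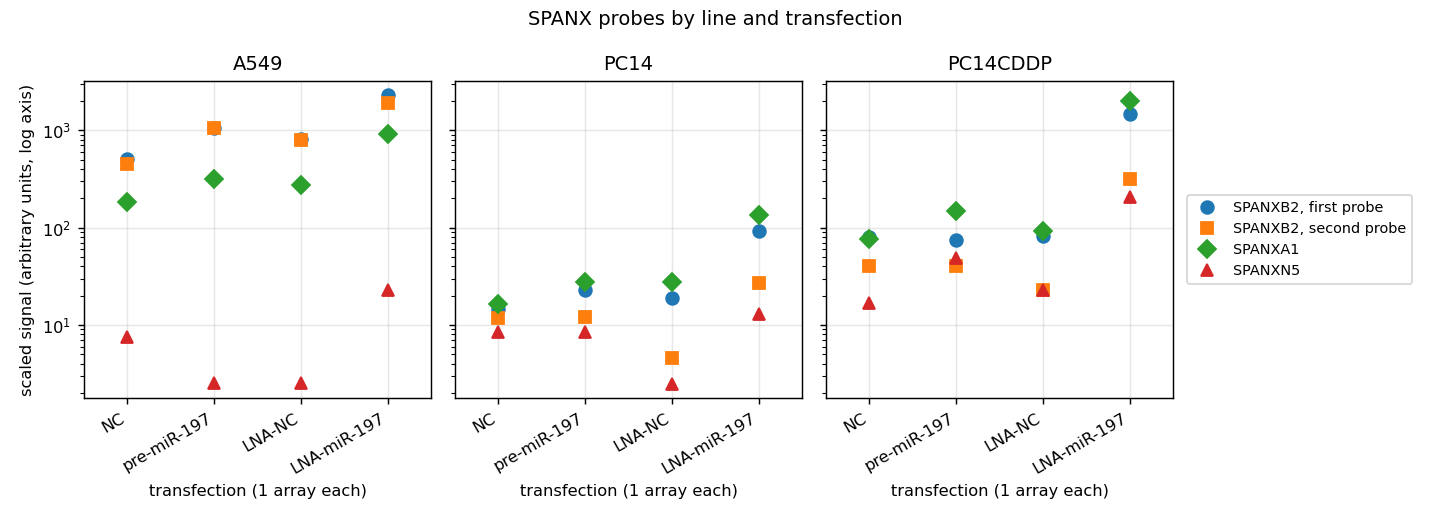
Scaled signal in arbitrary units (log axis) of 4 SPANX probes in each line, with 1 point per array and transfections on the horizontal axis. The LNA-miR-197 array is the highest of its line for every probe, and the step is widest in PC14CDDP, from 82.0 to 1472 units on the first SPANXB2 probe.

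DNA methylation marks CpG sites, and the promoters of the called SPANX genes are shown for theirs. The sequences hold 300 bases and end 50 bases after the start in RefSeq on GRCh38.p14, with every CG in capitals.
SPANXA1, chrX:141584689-141584988, minus strand: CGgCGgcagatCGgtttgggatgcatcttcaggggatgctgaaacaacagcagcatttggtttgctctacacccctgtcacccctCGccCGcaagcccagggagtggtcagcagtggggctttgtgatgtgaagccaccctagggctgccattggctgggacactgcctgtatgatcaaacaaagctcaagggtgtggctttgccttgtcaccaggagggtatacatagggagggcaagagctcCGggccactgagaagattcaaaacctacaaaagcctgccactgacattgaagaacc
SPANXB1, chrX:141002344-141002643, plus strand: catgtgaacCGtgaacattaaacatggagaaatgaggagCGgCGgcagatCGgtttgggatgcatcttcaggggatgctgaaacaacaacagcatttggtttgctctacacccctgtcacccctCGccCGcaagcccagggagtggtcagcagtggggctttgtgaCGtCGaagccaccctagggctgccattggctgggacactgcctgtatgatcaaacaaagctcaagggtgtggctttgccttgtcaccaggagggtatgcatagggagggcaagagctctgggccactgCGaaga
SPANXN5, chrX:52797378-52797677, minus strand: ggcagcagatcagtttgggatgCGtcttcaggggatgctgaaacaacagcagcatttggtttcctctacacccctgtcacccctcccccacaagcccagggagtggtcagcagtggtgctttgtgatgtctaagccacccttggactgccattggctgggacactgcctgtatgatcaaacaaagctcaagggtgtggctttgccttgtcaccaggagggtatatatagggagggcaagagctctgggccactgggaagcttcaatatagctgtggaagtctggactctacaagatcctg
CG stood 6 times in SPANXA1, 9 times in SPANXB1 and 1 time in SPANXN5, beside a median of 14 (quartiles 4 and 28) over 35116 promoters of the same length and of 11 (quartiles 7.25 and 13) over 78 promoters of these families. SPANXN5 lay below the lower quartile of both sets, SPANXA1 below that of the families only, and SPANXB1 between the quartiles of both. SPANXA1 and SPANXA2 were identical over 300 bases, and SPANXC matched SPANXA1 at 295 of them. Methylation was not measured in these samples.

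The miRNA itself is shown with its seed, bases 2 to 8, in capitals (RefSeq, GRCh38.p14).
hsa-miR-197-3p, chr1:109598940-109598961, plus strand: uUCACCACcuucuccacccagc
The letters that pair with the seed, GTGGTGA, were in 0 of the 48 kept probe sequences and in 0.511% of all probes, read on the strand printed. A probe covers 60 bases, so this says nothing of the rest of the RNA.

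After pre-miR-197 against NC limma called 0 of 36 signals (2 at an unadjusted p under 0.05), where 0.217% of all genes were called. SPANXA/B/C/D had log2 ratios from -0.11 (PC14CDDP) over 0.64 (PC14) to 1.06 (A549; limma adjusted p = 0.668). For the control transfections, LNA-NC against NC, the count was 0 of 36 (5 unadjusted) and 0.632% of all genes. For the difference between the LNA-miR-197 and pre-miR-197 changes it was 0 of 36 (5 unadjusted), against 0.117% of all genes, with 2.12 for SPANXA/B/C/D (SE 0.73, limma adjusted p = 0.190) and 2.93 for SPANXN5 (SE 0.87, limma adjusted p = 0.146). The methods' t-test also called 0 in the first and second of these.

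After LNA-miR-197 against LNA-NC, MAGEA2/2B, MAGEA12 and MAGEA3/6 had log2 changes of 0.32, 0.30 and 0.26, which did not pass the threshold (limma adjusted p of 0.248, 0.216 and 0.337). CTAG1, GAGE and MAGEA9/9B had ratios of -2.56, -1.46 and -2.48 in A549, where the LNA-NC array was high and MAGEA9/9B was above background on that array alone, and between -0.30 and 0.17 in the other lines. Against NC, limma called 5 of the 36 higher, SPANXA/B/C/D and CTAGE4, CTAGE5, CTAGE11P and CTAGE15P, where 14.9% of all genes were called. The CTAGE changes lay between 0.61 and 0.69, and their probes are not all independent, as given above. This comparison and that against LNA-NC share the LNA-miR-197 arrays.

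**Figure D3:**
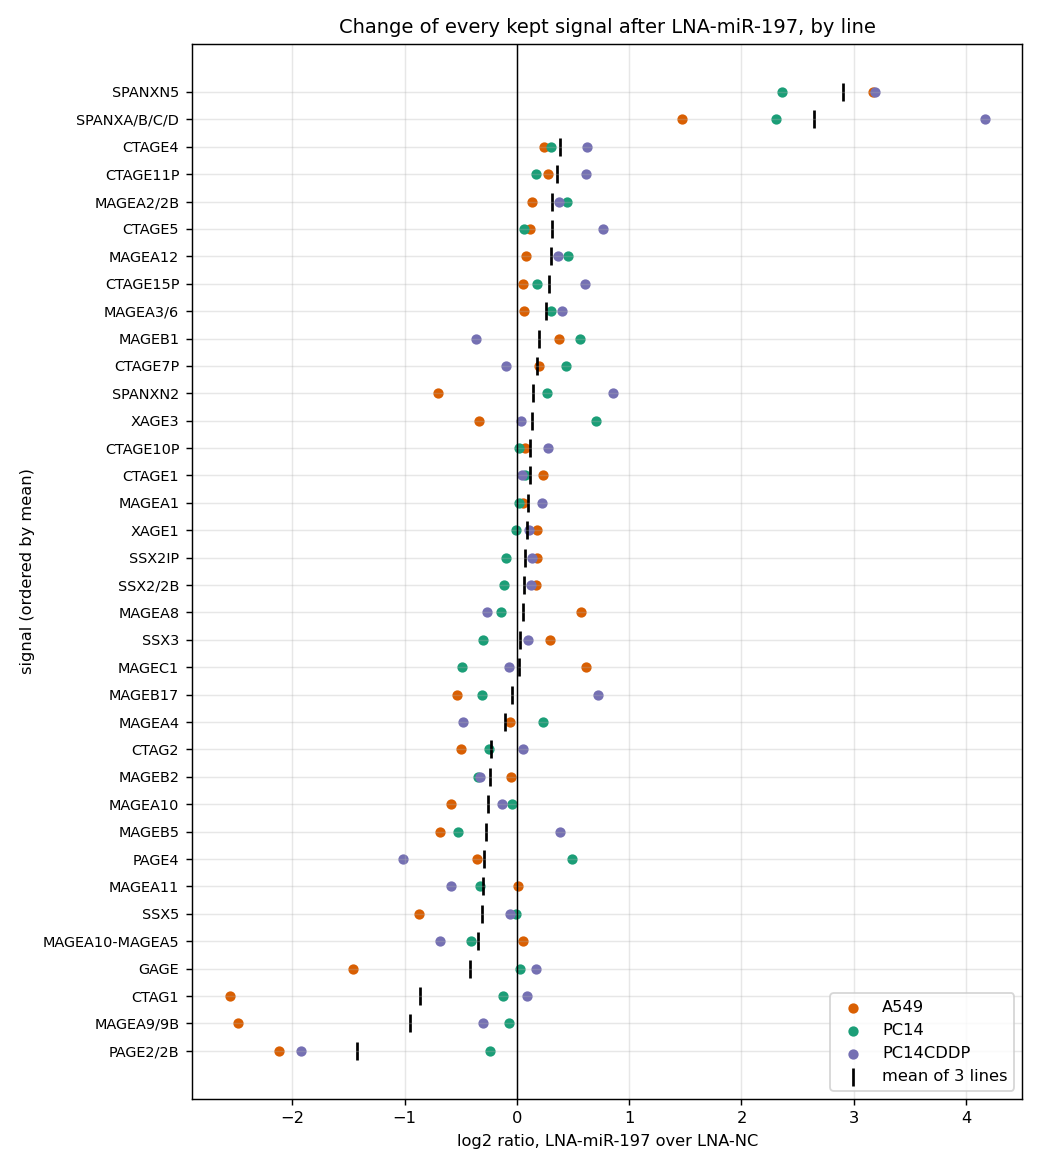
Log2 ratio of LNA-miR-197 over LNA-NC for each kept signal, with 1 point per line and a bar at the mean of the 3 lines. SPANXA/B/C/D lies above 1 in all lines, the SPANXN5 ratios of A549 and PC14 divide by LNA-NC signals that were not above background, and CTAG1 and MAGEA9/9B lie near -2.5 in A549 only.

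The signals not kept were 20 of 56. MAGEC2, SSX1 and SSX4/4B, 3 of the best known antigens, were above background on 0 of 12 arrays, and no probe was found under the name PAGE5. The others were MAGEB3, MAGEB4, MAGEB6, MAGEB10, MAGEB16, MAGEB18, MAGEC3, PAGE1, PAGE3, SPANXA2-OT1, SPANXN1, SPANXN3, SPANXN4, SSX7, SSX8, XAGE2/2B and XAGE5. The 34 probes not kept had signals of 1.45 to 26.5 units. At the edge of the rule, PAGE1 was above background on 2 arrays and outside (2.04 to 11.97 units), and MAGEB5, PAGE4, PAGE2 and PAGE2B, on 4 arrays each, were the nearest inside (1.96 to 33.6 units). In A549, 17 of the 28 kept X-linked signals were above background on all 4 arrays and 5 on none, in PC14 25 and 0, and in PC14CDDP 20 and 1. The 5 kept signals of MAGEB1, MAGEB5, MAGEB17, SSX5 and PAGE4 did not exceed 37.1 units on the probe that stands for them.

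Other cancer-testis genes were looked at in a list of 46, of which 29 were kept and CTAGE1 is also a member. In A549 against PC14, 14 were lower and 5 higher (32.4% and 35.8% of all genes), with a median of -0.31 beside 0.08 over all genes. PASD1 was not above background on any A549 array and averaged 6463 units in PC14, CT45A5 was lower by -9.03 and CT45A1 by -8.53. In PC14CDDP against PC14, 8 were lower and 4 higher (23.3% and 25.1% of all genes). NXF2, an mRNA export factor, was lower by -3.30 (limma adjusted p = 2.61e-05), IL13RA2, a decoy receptor for IL-13, was higher by 2.62 (limma adjusted p = 0.00429), and CALR3, a testis calreticulin, was lower by -1.57. After LNA-miR-197 against LNA-NC, 2 were lower, LDHC by -0.99 and TSGA10 by -0.78, where 7.73% of all genes were called. In LNA-NC against NC, STK31 was higher by 1.77 (limma adjusted p = 0.0449).

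Of the ubiquitous MAGE genes, which are not restricted to the germ line, 9 of 11 were kept. In A549 against PC14, 6 were higher and 3 lower (35.8% and 32.4% of all genes). NDN (necdin) averaged 5359 units in PC14 and was above background on 1 of 4 A549 arrays, MAGEF1 was lower by -1.21, and TRO (trophinin) was higher by 3.54. In PC14CDDP MAGEH1 was lower by -1.68 and MAGEF1 by -0.60, where 23.3% of all genes were called lower. After LNA-miR-197 MAGEL2 was higher by 0.75 (limma adjusted p = 0.0219), where 7.73% of all genes were called.

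Of 26 genes of DNA methylation and silencing, 24 were kept. In A549 against PC14, 16 were lower and 2 higher, beside 32.4% and 35.8% of all genes. The largest were PIAS2 (-1.62), HDAC3 (-1.40) and DNMT3A, a de novo DNA methyltransferase (-1.34). In PC14CDDP 7 were higher and 5 lower, near the 25.1% and 23.3% of all genes, with TET1, which oxidizes methylated cytosine, lower by -2.03 (limma adjusted p = 2.30e-05), HDAC2 higher by 1.27 and UHRF1, which guides DNMT1, higher by 1.01. After LNA-miR-197 against LNA-NC, PIAS2 was higher by 0.63 and EHMT1 lower by -0.47.

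Of 9 ligase partners of MAGE proteins and their clients, 8 were kept. In A549 against PC14, 4 were lower and 3 higher, beside 32.4% and 35.8% of all genes. The lower ones were led by TRIM27 (-1.44), RNF8 (-0.97) and RBX1 (-0.77). In PC14CDDP, PRKAA2 and PRKAA1, catalytic subunits of AMPK, were lower by -1.59 and -0.79, and RNF8 was higher by 0.58. In all 2 were higher and 3 lower, beside 25.1% and 23.3% of all genes. TRIM27 was higher after LNA-miR-197 against LNA-NC by 0.64 (limma adjusted p = 0.0188).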

How the data were processed

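RNA (100 ng) of each culture was labeled with Cy3 and hybridized to 1 Agilent 60-mer array. Per the file headers, Feature Extraction 10.7.3.1 (Agilent) read the scans. The authors deposited, per spot, the intensity as mean pixel value, local background and a processed signal that is background-subtracted and detrended but not scaled between arrays, besides flags. They also deposited a table of intensity values, which equals the processed signal on all 62976 spots of every array. Normalization between arrays is not given in the sources used here, and the methods name Student's t-test in general.

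Each array's 75th percentile (613 to 719) was subtracted, as log2, from its log2 processed signals. Control spots, outlier spots and 106 probes with missing values were left out, and spots of a probe were averaged. A probe well above background on at least 3 arrays was kept, and the kept probe with the highest mean stood for its gene or merged signal. Probes were named through RefSeq accessions where these matched (28174 of 50599), and otherwise by the name in the files. limma 3.58.1 (R 4.3.3) with line and transfection as terms was followed by eBayes and Benjamini-Hochberg adjustment. The line pairs the arrays: deviations of same-line arrays correlated with r of 0.929 to 0.948 in A549, 0.881 to 0.905 in PC14 and 0.848 to 0.898 in PC14CDDP. Tested on simulated arrays for LNA-miR-197 against LNA-NC (24854 genes, 200 changed by a log2 of 2), it recovered 174 (87%) with 7 false calls. The simulation used independent noise and the same change in every line, so these rates need not hold for changes that differ by line. The number of arrays limits the precision.

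The members and lists were chosen with earlier results of these data known. Values were given for signals called in the transfection comparisons, for the 8 called signals with the largest differences in each line comparison, and for the best known antigens. From the other lists, the 3 called genes with the largest differences were named. The sequence of 1 probe is not reported here.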

Additional observations from a re-analysis of the deposited data

Results flagged for a closer look

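Within each line, the array farthest from the other 3 was tested by the ratio of its gap to the range, for 18 named signals in 3 lines (54 groups). For arrays treated alike, chance alone flags about 1 in 20 groups. That rate does not apply here, since each group holds 4 different transfections and signals were named in part for calls in these arrays. In all, 4 groups stood apart. SPANXA/B/C/D in PC14CDDP had 1472 units on the LNA-miR-197 array, against 74.0 to 82.0 on the others, which is the change already given above. PAGE2/2B in PC14CDDP had 3.77 units on the LNA-miR-197 array, against 13.3 to 14.2. MAGEC1 in PC14 had 19.7 units on the LNA-miR-197 array, against 26.8 to 27.6. MAGEA10 in PC14 had 6969 units on the NC array, against 9193 to 9631.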

How the results depend on the processing

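The number of antigen signals called for LNA-miR-197 against LNA-NC was 2, and it depended on the processing. It fell to 0 with no filter on dim probes, with only the arrays of the comparison, with the methods' t-test (0 at an unadjusted p under 0.05), without the replicate block of the cell line, with the slide as block, and without either the A549 LNA-NC or the PC14CDDP LNA-miR-197 array. It was 0 to 0 when each line was left out, 1 when probes had to be above background on all 12 arrays, and 5 with NC as the control. The 2 settings on single arrays, among others, were chosen after seeing the data. The cause was not tested. For PC14CDDP against PC14 the count lay between 13 and 23 (17 as reported), and normexp split it into 15 higher and 6 lower. For A549 against PC14 it lay between 15 and 24 (22 as reported). Over all genes, PC14CDDP against PC14 had 8038 calls (t-test) to 13619 calls (no dim filter, 36271 genes). A549 against PC14 had 13667 calls (probes above background on all 12 arrays, 18481 genes) to 17342 calls. No setting called a member after pre-miR-197 or between the controls.

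Of the comparisons of single signals under the alternatives, 569 kept direction and side of the threshold, 44 lost the call, 15 gained one and 7 changed sign. Those that changed sign were uncalled or rested on the choice of probe. SPANXN5 after pre-miR-197 was 0.0594 with quantile normalization, 0.0354 with normexp and 0.76 without A549 (-0.02 as reported, between -0.80 and 0.76 over the lines left out). SSX2/2B in PC14CDDP against PC14 was -0.0653 with the percentile taken over probes above background on all arrays, -0.0216 without the PC14CDDP LNA-miR-197 array, and -0.0313 to 0.0493 with each transfection left out. CTAGE5 was -0.0052 with the mean of its probes. The median of all genes shifted by 0.12 with that percentile for A549 against PC14 and by 0.11 with no dim filter for PC14CDDP against PC14. Signals near background changed in size with the background correction, as for MAGEA9/9B in A549 against PC14 (-10.42, or -6.61 with normexp).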
